A study of Oryza sativa with 6 samples.

Results

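Abscisic acid is the plant hormone of water deficit, and the loci described here are those that make its committed precursor and those that break the hormone down. They were taken by locus identifier from the deposited count table: 3 loci named as 9-cis-epoxycarotenoid dioxygenases (NCED3, Os03g0645900; NCED4, Os07g0154100; NCED5, Os12g0617400) and 3 named as abscisic acid 8′-hydroxylases (ABA8OX1, Os02g0703600; ABA8OX2, Os08g0472800; ABA8OX3, Os09g0457100), 6 of the 37863 loci in the table. All 6 identifiers were found, and the digits after "Os" give the chromosome. The names NCED3, ABA8OX1, ABA8OX2 and ABA8OX3 lay on the same chromosome in the RefSeq gene table of the assembly ASM3414082v1 as in the locus identifier. NCED4 and NCED5 had no entry under those names, so their names rest on the locus alone.

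The samples were root tips of rice (Oryza sativa, cultivar Kitaake), cut up to 1 cm from the apex at 15 DAT. Plants stood in hydroponic boxes of 4, moved there as seedlings of 13 days. The 3 control libraries came from rice alone (R), in boxes whose surface was covered to keep algae out, and the 3 co-cultivated libraries from rice grown with living Azolla filiculoides (R+Af), a floating water fern. Both groups shared the cultivar, nutrient solution, light and time point, but the box cover and the fern changed together and cannot be told apart. Samples within a group are biological replicates, per the labels.

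Carotenoids are the raw material of abscisic acid. In plastids, NCED enzymes cut 9-cis-epoxycarotenoids to xanthoxin, the step usually taken as limiting for synthesis, and a short-chain dehydrogenase and an aldehyde oxidase then finish the hormone in the cytosol. The 8′-hydroxylases are cytochrome P450 enzymes of the CYP707A family, which start the main route of breakdown to phaseic acid. The hormone binds PYL receptors, which then block PP2C phosphatases and so release SnRK2 kinases (SAPK in rice) to act on bZIP transcription factors. In Arabidopsis, abscisic acid treatment raises many PP2C transcripts and lowers several PYL transcripts.

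Library totals ran from 21551508 to 23703813 estimated counts for the control libraries and from 23477086 to 25120456 for the co-cultivated ones. Levels are CPM, the counts of a locus relative to the TMM-scaled library size, and log2 fold changes compare co-cultivated with control libraries, with edgeR's quasi-likelihood test adjusted over all 24615 tested loci. A locus is called when the adjusted p is under 0.05. Transcript levels of different loci are not ranked against each other, because no transcript lengths were used. In whole root tips, fewer cells of a type and less RNA per cell cannot be told apart. The summed level of 2 exodermis and endodermis markers, LSI1 and LSI2, was 744 to 1192 CPM in the control and 1398 to 2594 CPM in the co-cultivated libraries. That of 2 root hair markers, CSLD1 and EXPA17, was 7.17 to 19.5 and 26.6 to 56.0 CPM. Both loci of each pair were higher without overlap, as were 12.4% of all tested loci. The edgeR adjusted p was 0.147 (LSI1), 0.123 (LSI2), 0.0847 (CSLD1) and 0.103 (EXPA17), so edgeR called 0 of them. DESeq2 called both loci of each pair higher. EXPA17 was at 0.675 CPM in control replicate 3 and at 4.91, 4.23 and 0.711 CPM in co-cultivated replicates 1, 2 and 3. The 5 root tip markers (QHB, SCR1, SHR1 and the loci listed as PLT1, Os04g0653600, and CYCB1;1, Os01g0805600) summed to 88.0 to 165 CPM and to 101 to 116 CPM. Among them, the locus listed as PLT1 was below the control range in every co-cultivated library, as were 15.3% of all tested loci. Its levels were 27.3, 28.1 and 24.3 against 14.2, 20.1 and 17.2 CPM (log2 fold change −0.63 ± 0.17, SE, edgeR adjusted p = 0.106, DESeq2 adjusted p = 0.0291). The other root tip markers overlapped between groups. Their log2 fold changes were 0.62 (QHB), 0.20 (SCR1), −0.20 (SHR1) and −0.15 (the locus listed as CYCB1;1). The 4 green tissue markers summed to 9.47 to 21.8 and 2.12 to 20.8 CPM, mostly from CAB1R, with the locus listed as RBCS2 (Os12g0274700) at 0 in 3 of the 6 libraries. No marker was at 0 in all libraries. The part of these cell types in the differences given here was not tested.

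Of the 6 loci, 5 had enough counts to be tested, and 0 were called by edgeR, against 2.63% of all tested loci. At an unadjusted p under 0.05 there was 1 member, NCED4, against 20.4% of all tested loci. NCED4 was also called by DESeq2, which called 10.3% of loci, and limma-voom called 0 of the members and 2.27% of loci. NCED4 was also the 1 tested member whose groups did not overlap, where 27.7% of all tested loci had separate groups.

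NCED4 had the largest difference of the 5 tested loci. It stood at 14.0, 5.61 and 21.9 CPM in control replicates 1, 2 and 3 and at 179, 25.7 and 83.8 CPM in co-cultivated replicates 1, 2 and 3. Every co-cultivated library was above every control library, but co-cultivated replicate 2 lay close to control replicate 3. The means were 13.8 ± 8.14 CPM (SD, n = 3) and 96.0 ± 77.3 CPM (n = 3), and the highest co-cultivated library held 6.96 times the level of the lowest. The log2 fold change was 2.79 ± 0.75 (SE; 95% interval 1.03 to 4.56), which missed the threshold (edgeR adjusted p = 0.102). The size leaned on single libraries: leaving out co-cultivated replicate 1 gave a log2 fold change of 1.99, and leaving out control replicate 3 gave 3.29. Over the 6 fits without 1 library the edgeR adjusted p ran from 0.0609 to 0.290. DESeq2 put NCED4 past the threshold at 2.82 (DESeq2 adjusted p = 0.000791).

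NCED3, the family member named in the RefSeq table, was less clearly separated. Its levels were 19.97, 5.79 and 7.003 CPM in the control libraries and 29.6, 15.9 and 19.6 CPM in the co-cultivated libraries. Control replicate 1 reached the co-cultivated range, while the other 2 control libraries lay below it. The log2 fold change was 0.99 ± 0.49 (SE; 95% interval −0.16 to 2.14; edgeR adjusted p = 0.305). Without control replicate 1 it was 1.75, with an edgeR adjusted p of 0.101, and over the fits without 1 library it was at least 0.68.

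NCED5 gave overlapping groups. It stood at 14.3, 5.84 and 6.62 CPM in the control libraries and at 10.6, 5.16 and 6.87 CPM in the co-cultivated libraries. In each group replicate 1 was the high library and the other 2 lay close together. The log2 fold change was −0.25 ± 0.41 (SE; 95% interval −1.22 to 0.73; edgeR adjusted p = 0.778), and its sign turned to 0.26 without control replicate 1. The interval leaves room for changes of either sign.

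**Figure D1:**
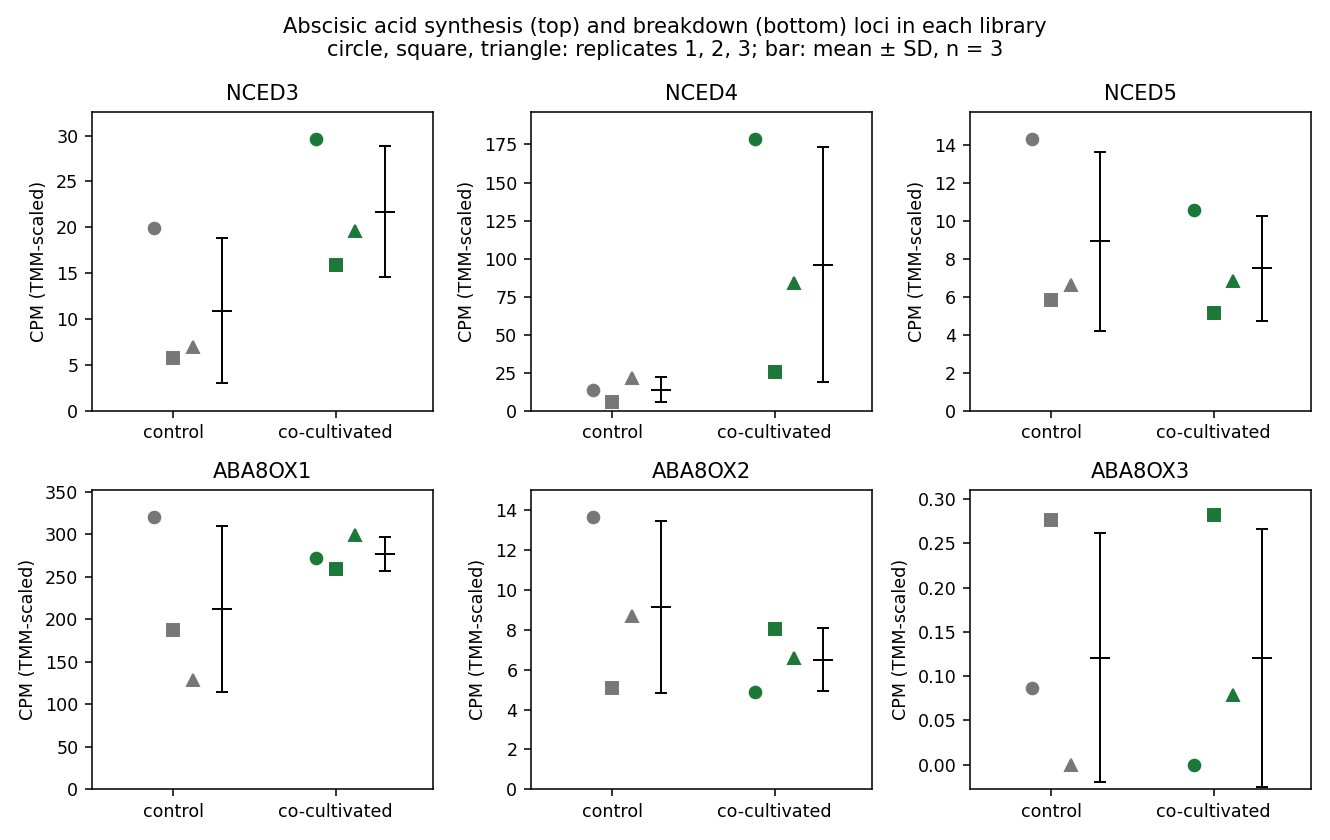
Level of each of the 6 loci in CPM in the 3 control (grey) and 3 co-cultivated (green) libraries, with mean ± SD beside the points; each panel has its own axis, and the panel of ABA8OX3 rests on 0 to 7 counts per library. NCED4 is the panel whose groups are apart, from 5.61 to 21.9 CPM against 25.7 to 179 CPM, and the control points of ABA8OX1 spread from 129 to 320.0 CPM around the tight co-cultivated points.

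Among the breakdown loci, ABA8OX1 took from 93.7% to 98.2% of the ABA8OX counts of a library, a share not corrected for transcript length. Its level was 320.0, 187 and 129 CPM in the control libraries and 272, 259 and 299 CPM in the co-cultivated libraries. The co-cultivated libraries fell inside the control range, and their spread was smaller, with a coefficient of variation of 7.38% against 46.2%; this difference in spread was not tested. The log2 fold change was 0.38 ± 0.32 (SE; 95% interval −0.36 to 1.13; edgeR adjusted p = 0.539). It ran from 0.13 without control replicate 3 to 0.80 without control replicate 1.

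ABA8OX2 stood at 13.6, 5.06 and 8.69 CPM in the control libraries and at 4.87, 8.06 and 6.59 CPM in the co-cultivated libraries. The groups overlapped, with control replicate 1 above all other libraries. The log2 fold change was −0.49 ± 0.38 (SE; 95% interval −1.37 to 0.39; edgeR adjusted p = 0.510), and without control replicate 1 it was −0.08. A change of the size estimated for NCED4 lies outside this interval and outside that of ABA8OX1.

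ABA8OX3 was barely detected. It held 2, 6 and 0 counts in the control libraries and 0, 7 and 2 counts in the co-cultivated libraries, too few to pass the count filter. The 8 control and 9 co-cultivated counts gave a ratio of 1.04 for co-cultivated over control, with an exact 95% interval of 0.355 to 3.09 that covers counting error only. A library with 0 counts allows a level of up to 0.119 to 0.139 CPM at these depths (3 counts of the total), so differences inside that interval of the ratio could not be seen at this depth.

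**Figure D2:**
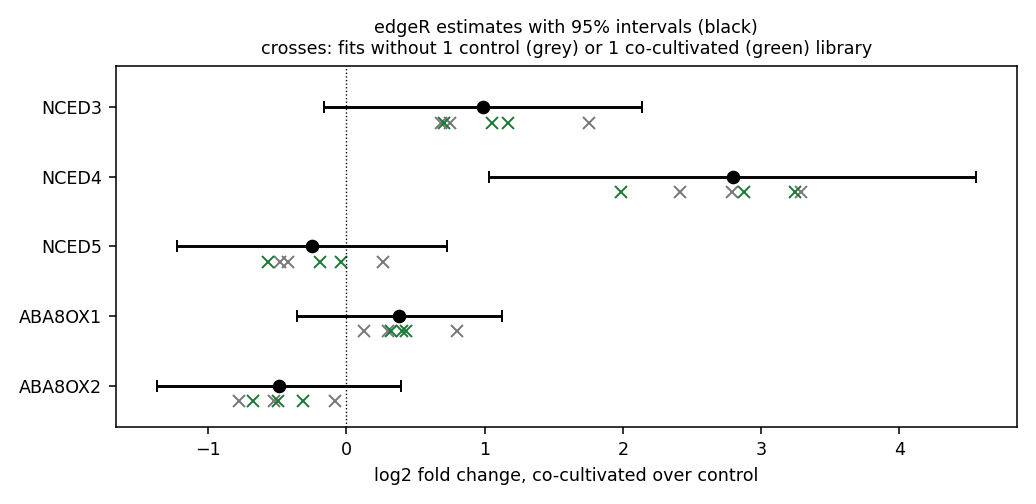
Log2 fold change of the 5 tested loci, co-cultivated over control, with 95% intervals from edgeR (black) and the estimates with 1 control (grey) or 1 co-cultivated (green) library left out. The interval of NCED4 runs from 1.03 to 4.56 and lies above 0, the other 4 include 0, and NCED5 changes sign without control replicate 1.

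The spread within groups ran partly in common across the loci. Control replicate 1 was the highest control library for 4 of the 5 tested loci, the exception being NCED4. Control replicate 2 was the lowest for 4 of the 5, the exception being ABA8OX1. In the co-cultivated group, replicate 1 was the highest for NCED3, NCED4 and NCED5 and the lowest for ABA8OX2, and replicate 2 was the lowest for the other 4. These loci were measured in the same libraries and are not independent.

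How the NCED counts were divided among the 3 loci does not depend on the scaling between libraries. NCED4 took 28.9% (95% Wilson interval 26.3 to 31.6), 32.5% (28.0 to 37.4) and 61.6% (58.3 to 64.9) of the NCED counts in control replicates 1, 2 and 3. In co-cultivated replicates 1, 2 and 3 it took 81.6% (80.5 to 82.7), 54.9% (52.0 to 57.8) and 76.0% (74.4 to 77.6). The intervals cover counting error only, and the groups overlapped, because control replicate 3 exceeded co-cultivated replicate 2. NCED5 took 29.7%, 33.9% and 18.6% in the control libraries and 4.83%, 11.0% and 6.23% in the co-cultivated libraries, so that its share was lower in every co-cultivated library, although its own level overlapped. Shares of one total are tied, and a larger NCED4 count lowers the other shares. The shares were not corrected for transcript length.

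Summed over the loci, the NCED counts came to 48.3, 17.2 and 35.5 CPM in the control libraries and 219, 46.7 and 110 CPM in the co-cultivated libraries. The ABA8OX sum was 334, 193 and 138 CPM against 277, 268 and 306 CPM. For every 100 ABA8OX counts there were 14.5, 8.95 and 25.8 NCED counts in the control libraries and 79.1, 17.5 and 36.0 in the co-cultivated libraries. Co-cultivated replicates 1 and 3 lay above all control libraries, and co-cultivated replicate 2 lay between control replicates 1 and 3. These sums and ratios describe counts that were not corrected for transcript length, and they were not tested. They say nothing of enzyme activity or hormone level.

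**Figure D3:**
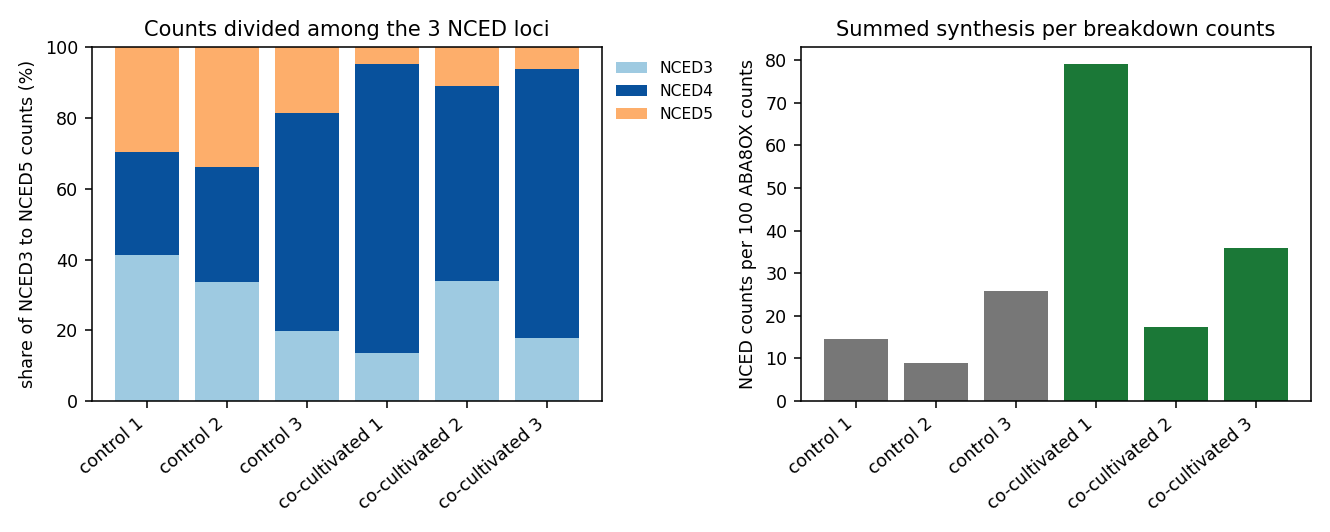
Left, share in percent of the counts of NCED3, NCED4 and NCED5 in each of the 6 libraries; right, NCED counts per 100 ABA8OX counts in control (grey) and co-cultivated (green) libraries. NCED4 takes from 28.9% to 61.6% in control and from 54.9% to 81.6% in co-cultivated libraries. The ratio is highest in co-cultivated replicate 1, at 79.1. Neither measure is corrected for transcript length.

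The wider pathway was read from 8 lists of 63 loci, of which 53 were tested. Of these, 1 was called higher and 4 lower by edgeR, where 1.46% of all tested loci were called higher and 1.17% lower. DESeq2 called 9 higher and 7 lower, where it called 10.3% of all tested loci in either direction. The lower calls numbered 1 when replicate 1 of either group, or replicate 2 of the co-cultivated group, was left out, 2 without replicate 3 of either group and 4 without control replicate 2, and the higher calls numbered 3 without control replicate 3. Over all 53 the median log2 fold change was −0.11, against −0.03 over all tested loci. Names that had no entry in the RefSeq table are given as "listed as", and so are the receptor loci, which were not looked up by name.

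Upstream of the NCED step, edgeR called 1 of 8 carotenoid loci, against 2.63% of all tested loci. PSY2, a phytoene synthase that opens carotenoid synthesis, stood at 23.4, 16.4 and 17.2 CPM in the control libraries and at 9.47, 6.89 and 9.63 CPM in the co-cultivated libraries. It fell, at −1.13 ± 0.22 on the log2 scale (SE; edgeR adjusted p = 0.0464). The call was lost in 5 of the 6 fits without 1 library (edgeR adjusted p up to 0.159), the exception being control replicate 2, and also with limma-voom and with RLE scaling. The locus listed as ABA4 (Os01g0128300), which acts in neoxanthin formation in Arabidopsis, was at 13.9 ± 3.06 against 23.5 ± 2.95 CPM (SD, n = 3 each; edgeR adjusted p = 0.104). The 8 carotenoid loci split into 4 positive and 4 negative fold changes.

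The other carotenoid-cleaving loci and the steps after cleavage gave 0 calls by edgeR and by limma-voom, in 2 and 5 tested loci. At an unadjusted p under 0.05 there were 1 and 2, and DESeq2 called 1 and 2, against 20.4% and 10.3% of all tested loci. The locus listed as NCED1 (Os02g0704000) held 50, 6 and 88 counts in the control and 39, 24 and 49 counts in the co-cultivated libraries, and the locus listed as NCED2 (Os12g0435200) held 0 throughout. The locus listed as CCD1 (Os12g0640600), a dioxygenase that acts on other carotenoid bonds, was at 86.6 ± 4.31 against 56.1 ± 8.43 CPM (SD, n = 3 each; edgeR adjusted p = 0.0795). Among the loci listed as aldehyde oxidases, AO3 (Os07g0281700) was at 6.98 ± 4.13 against 18.7 ± 6.75 CPM and AO2 (Os03g0790700) at 25.8 ± 12.4 against 10.1 ± 3.85 CPM (edgeR adjusted p = 0.147 and 0.152). Both levels are uncertain, since the counts at these loci were fractional and reads may have been split between similar sequences.

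Receptor and phosphatase loci, the sensing end of the pathway, held 4 of the 5 calls. Of the 7 tested loci listed as PYL receptors, edgeR called 3 lower and 0 higher, with a list median of −0.34. Over all tested loci the shares were 1.17% lower and 1.46% higher. DESeq2 called 3 lower, against 10.3% of all tested loci in either direction, and limma-voom 2, against 2.27%. Without overlap of the groups, 3 were lower and 1 higher, against 15.3% and 12.4% of all tested loci. The locus Os05g0473000 stood at 12.04, 13.7 and 13.2 CPM in the control libraries and at 4.69, 3.87 and 3.67 CPM in the co-cultivated libraries, which is −1.67 ± 0.19 on the log2 scale (SE; edgeR adjusted p = 0.00835). The groups were far apart compared with the spread inside each, and the call stood in each of the 17 alternative fits. The locus Os03g0297600 fell from 103, 99.8 and 112 CPM to 35.4, 44.4 and 52.8 CPM, or −1.24 ± 0.18 on the log2 scale (edgeR adjusted p = 0.0180). That call was lost when replicate 1 of either group, or replicate 2 of the co-cultivated group, was left out, with edgeR adjusted p as high as 0.0848. The locus Os06g0562200 fell from 27.9, 19.0 and 23.0 CPM to 12.7, 11.7 and 10.8 CPM, or −0.99 ± 0.19 on the log2 scale (edgeR adjusted p = 0.0429). It kept its call in 1 of the 6 fits without 1 library, the one leaving out control replicate 2. In the others the edgeR adjusted p reached 0.150, and limma-voom did not call it. The other 4 tested receptor loci had log2 fold changes of both signs.

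All 8 tested phosphatase loci had positive fold changes, under every scaling and every fit without 1 library, with a median of 1.07. Of all tested loci, 47.3% were positive. PP2C30 was the called member, at 7.68, 5.10 and 3.50 CPM in the control libraries and at 41.9, 31.8 and 28.0 CPM in the co-cultivated libraries. On the log2 scale the change was 2.64 ± 0.31 (SE; edgeR adjusted p = 0.00982), and it stayed past the threshold in each of the 17 alternative fits. PP2C68 was at 14.6, 12.3 and 25.1 against 87.2, 50.3 and 41.9 CPM and missed the threshold at 1.78 ± 0.37 (edgeR adjusted p = 0.0545). In 6 of the 8 loci the groups did not overlap, where 12.4% of all tested loci were higher without overlap. DESeq2 called 6 of the 8, against 10.3% of all tested loci in either direction. The smallest fold change among the 8 was that of PP2C53, at 0.11. Of the 10 phosphatase loci listed, the locus listed as PP2C37 (Os04g0167900) held 0 counts throughout. PP2C51, at 0.225 against 0.230 CPM, also had too few counts to be tested. This list, like the others, was chosen with earlier results of these data known. Its loci were measured in the same libraries and are not independent, so the shares over all tested loci do not test the list.

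**Figure D4:**
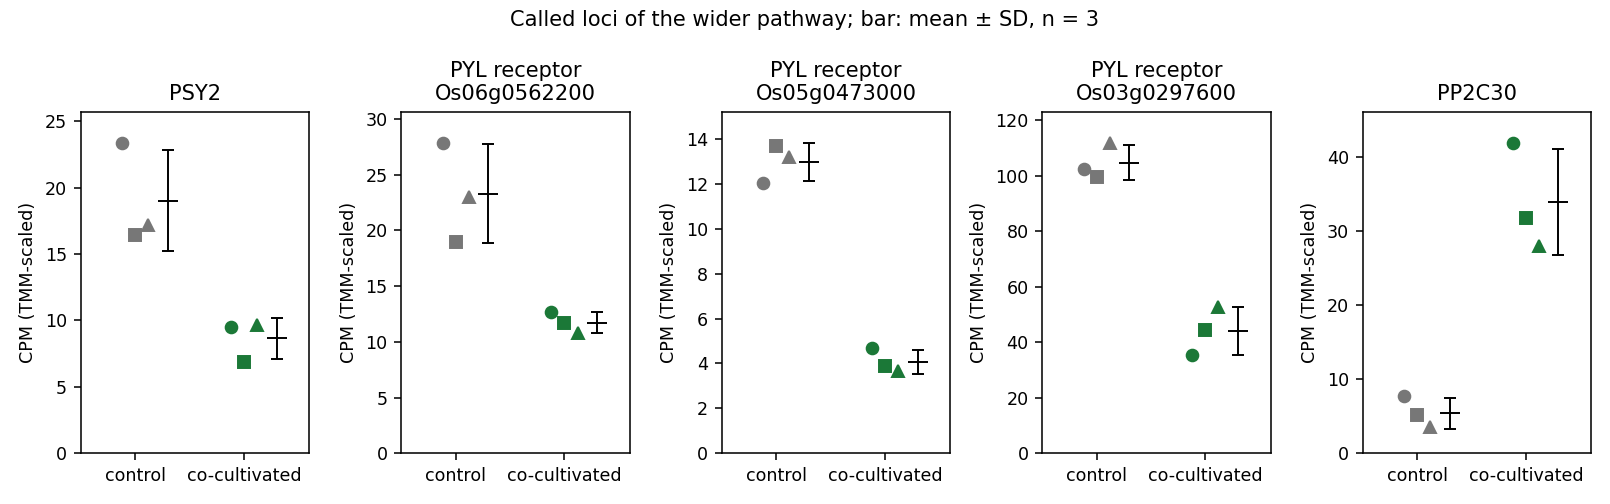
Levels in CPM of the 5 called loci of the wider pathway in the 3 control (grey) and 3 co-cultivated (green) libraries, with mean ± SD beside the points and an axis from 0 in each panel. PSY2 and the 3 receptor loci are lower in every co-cultivated library, and PP2C30 is higher, at 28.0 to 41.9 against 3.50 to 7.68 CPM.

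Kinases, transcription factors and response genes gave 0 calls by edgeR and 0 by limma-voom, in 10, 6 and 7 tested loci. At an unadjusted p under 0.05 there were 3, 3 and 1, and DESeq2 called 2, 0 and 0, against 20.4% and 10.3% of all tested loci. The kinase SAPK9 was at 73.0 ± 7.50 against 42.2 ± 8.51 CPM and SAPK4 at 120.3 ± 0.418 against 169 ± 8.95 CPM (SD, n = 3 each; edgeR adjusted p = 0.0749 and 0.0934). The bZIP factor bZIP23 was at 51.9 ± 7.06 against 87.2 ± 30.8 CPM, and the locus listed as ABF1 (Os01g0867300) at 49.3 ± 11.8 against 32.8 ± 5.69 CPM (edgeR adjusted p = 0.164 and 0.191). The largest fold change of the factors was that of the locus listed as ABI5 (Os01g0859300), named after its values were seen. It held 4, 1 and 54 counts in the control and 54, 92 and 175 counts in the co-cultivated libraries. Its log2 fold change of 2.36 ± 1.05 missed the threshold (SE, edgeR adjusted p = 0.260). Late embryogenesis genes, which many tissues switch on under abscisic acid, gave no call. EM was at 1.11 ± 0.286 against 0.422 ± 0.251 CPM and LEA3 at 11.2 ± 8.32 against 4.78 ± 0.741 CPM (edgeR adjusted p = 0.173 and 0.271). The dehydrin gene DHN1, named after its values were seen, stood at 369, 191 and 410 CPM in the control libraries and at 544, 439 and 439 CPM in the co-cultivated libraries. Its groups did not overlap, as in 12.4% of all tested loci in that direction, and its log2 fold change of 0.55 ± 0.29 missed the threshold (SE; edgeR adjusted p = 0.339). Each of the 4 RAB16 dehydrin loci (RAB16B, RAB16C, RAB16D and the locus listed as RAB16A, Os11g0454300) held at most 34 counts in any library and was not tested. The response list had 5 negative and 2 positive fold changes.

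**Figure D5:**
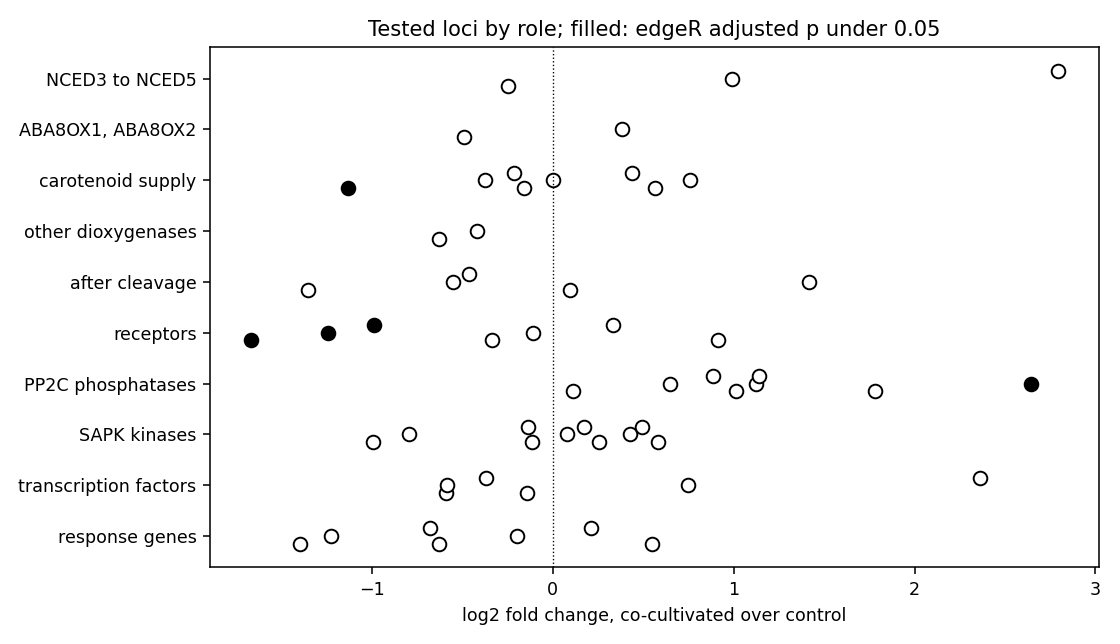
Log2 fold change, co-cultivated over control, of each tested locus by its role, filled where the edgeR adjusted p was under 0.05. The 8 phosphatases all lie to the right of 0, from 0.11 to 2.64, the filled receptor points lie between −1.67 and −0.99, and NCED4 lies furthest right, unfilled, at 2.79.

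Each tested member was also set beside the other 57 tested loci of these lists by the root mean square difference of log2 CPM, centred per locus, over the 6 libraries. The nearest to NCED3 was PP2C08, at 0.46, where the median over the 57 was 0.86. The nearest to NCED4 was the locus listed as AO3, at 0.84 against a median of 1.62. NCED5 lay nearest to the response gene NAC6 (0.24 against 0.59). ABA8OX1 lay nearest to the locus listed as SNAC1 (Os03g0815100), a stress-responsive transcription factor (0.23 against 0.56). ABA8OX2 lay nearest to the receptor locus Os02g0255500 (0.28 against 0.63). The smallest of 57 distances lies below their median by construction. The distances are over 6 libraries and describe likeness of pattern alone.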

How the data were processed

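Estimated counts per locus, as deposited by the authors, were not scaled between libraries. Per the submitters' processing notes, the build was IRGSP-1.0 and DESeq2 1.28.1 was used; for the aligner, counter and strand setting, the entry is: not given in the sources used here. Poly-A libraries were stranded (dUTP), per the labels' protocols. Between 1343 and 1409 loci per library were more than 1e-06 from a whole number; the 6 members were whole. Counts were rounded, filtered with filterByExpr, scaled by TMM and tested with edgeR 4.0.16 (R 4.3.3; quasi-likelihood F test, two-sided, group as the single term, 4 residual degrees of freedom). Standard errors are the log2 fold change over the square root of F.

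The members and lists were chosen with earlier results of these data known. Of 83 pairs of symbol and locus, 48 passed a check of chromosome and order against the RefSeq table. Another 34 were counted as absent there. These include the 8 receptor loci, which carried no gene symbol and were not looked up. The name of 1 pair (ABA2) lay elsewhere and was left out, and 1 further locus was not found in the count table. Named are the members, called loci, the 2 smallest p per list and the nearest profiles; other loci were named after their values were seen.

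Replicate pairs differed by 23.0 to 118 chi-square units per locus, where sampling noise gives about 1, so no pair looked like a repeat deposit of 1 library; this does not test independence. Each edgeR p-value sets the group difference against the spread between these samples, estimated with help from all tested loci. On simulated data over 24615 loci for this comparison, edgeR recovered 0 of the 50 loci given a 1.5-fold change, 4 of the 50 given 2-fold, 37 of those given 4-fold and 45 of those given 8-fold, and 8 of 94 calls were false. Alternatives were DESeq2 1.42.0, limma-voom (limma 3.58.1), 3 scalings, 2 filters (no filter, or 1 CPM in 3 libraries) and unrounded counts. Further alternatives were a fit without the 20 most abundant loci, a robust fit, a replicate block and each library left out.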

Additional observations from a re-analysis of the deposited data

How the results depend on the processing

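Across 17 alternatives, NCED3, ABA8OX1 and ABA8OX2 kept their sign and stayed short of the threshold, and NCED4 stayed positive. DESeq2 called 1518 loci higher and 1017 lower, 1 member higher (NCED4 at 2.82), and 9 pathway loci higher and 7 lower. Limma-voom called 2 pathway loci lower and put NCED1 at 0.11, with a changed sign; without a count filter 2 were called higher. With a replicate block 1 member was called, NCED4 at 2.60 (edgeR adjusted p = 0.0379), 2 pathway loci were higher and 5 lower, and the receptor locus Os06g0562200 was not called (edgeR adjusted p = 0.0503). The block also called the locus listed as AO2 lower and that listed as AO3 higher (edgeR adjusted p = 0.0257 and 0.0346), as did DESeq2. Same-numbered libraries deviated together only weakly (correlations of 0.0571, 0.146 and 0.174), 4 of 6 libraries correlated best with their own number, and the labels do not say that numbers mark a shared batch, so the block is not the main result.

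Without 1 library, calls ran from 56 to 361 higher and from 83 to 493 lower over all loci, from 1 to 3 higher and 1 to 4 lower in the pathway lists, and stayed at 0 for the members. NCED5 ran from −0.57 to 0.26, NCED1 from −0.94 to 0.32, NAC6 from −0.41 to 0.049 and SNAC1 from −0.038 to 0.49. The cause was not tested. With 3 libraries per group, changes of 2-fold or less were mostly not called in the simulated data. The simulation gave 94 calls and the real comparison 648, so that recovery need not hold for the real data. There the receptor locus Os06g0562200 was called at 1.98-fold.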
